A study of Mus musculus with 24 samples.

Results

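High-fat feeding was compared with control feeding after 1 week in mouse subcutaneous fat, a white adipose depot beneath the skin. The comparison used the 8 small RNA libraries labelled with that time, 4 control and 4 high-fat, of 24 libraries in the series, and every microRNA (miRNA) in the deposited table. The other 16 libraries, control and high-fat at 1 day and at 3 weeks, entered the model for its estimate of spread and for the comparison of diet effects between times. The labels give diet, time and tissue alone, with no strain, genotype, sex, age, diet composition or group treatment shared by both diets. They do not say whether the 4 libraries of a group are 4 animals, so the p-values cover library-to-library spread alone, possibly technical in part. The series title reports less DICER on the high-fat diet, and the question here is which miRNAs differed between the diets after 1 week.

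A mature miRNA is a short RNA cut from a hairpin by DICER. It guides a silencing complex to messenger RNAs, mainly by pairing through its seed, bases 2 to 8 from the 5′ end, and it lowers their translation and stability. Each hairpin can give a 5p and a 3p arm, and neighbouring hairpins are often cut from 1 transcript. Adipose tissue holds fat cells, stromal precursors, vessels and immune cells, and each of these has characteristic miRNAs.

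The most abundant miRNAs included those of fat cells and vessels. The first was miR-148a-3p, enriched in fat cells, which took 14.9% of the counts on average over the 8 libraries. Next were miR-143-3p, typical of vessel wall muscle cells, at 13.6%, endothelial miR-126a-3p at 8.69%, miR-99a-5p at 7.75% and miR-21a-5p at 6.38%. No member of the adipocyte list passed an unadjusted p of 0.05 in the diet contrast, among 35 tested, against 14.2% of all tested miRNAs. Of the 35 members, 16 had higher and 19 lower estimates on high-fat feeding, with a median log2 fold change of -0.02. For miR-148a-3p the control libraries, in the order of their replicate numbers, read 178372, 106889, 141990 and 162432 CPM (counts scaled to a library total of 1 M, or mega-count, with TMM factors), and the high-fat libraries 150656, 107529, 147447 and 179455 CPM. These ranges nearly coincided, and the log2 fold change was -0.01 with a standard error (SE) of 0.24 and a 95% interval of -0.52 to 0.50.

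Library totals differed between the diets. Control libraries held 9.24 ± 4.92 M miRNA counts and high-fat libraries 3.56 ± 0.760 M (SD, n = 4). Each high-fat library was below each control library, by 0.381 in mean log10 total (exact two-sided permutation test over 70 regroupings, p = 0.0286, the smallest this design allows). The number of names with at least 1 count was 1009.5 ± 75.2 in control and 854 ± 66.6 in high-fat libraries (exact permutation test, p = 0.0571). A total count measures sequencing yield as well as RNA, so it gives no miRNA amount per tissue, and the part of depth in the results was not tested. A floor of 3 counts corresponded to between 0.184 and 0.564 CPM in control and between 0.724 and 1.18 CPM in high-fat libraries, before TMM scaling.

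After 1 week no miRNA passed an adjusted p under 0.05 in the main test. The quasi-likelihood test of edgeR called 0 of 558 miRNAs tested (0%), with a lowest adjusted p of 0.225, and DESeq2 also called 0. Limma-voom with quality weights, an alternative that gives less weight to variable libraries, called 17 miRNAs, 16 of them lower on high-fat feeding, among them miR-142a-3p, miR-342-3p, miR-92a-3p and miR-18b-5p. At an unadjusted p under 0.05 there were 79 miRNAs (14.2% of those tested). Of these, 28 (5.02%) were higher and 51 (9.14%) lower on high-fat feeding. The 4 high-fat values lay above all 4 control values for 5 miRNAs (0.896%) and below them for 11 miRNAs (1.97%). The median log2 fold change over all tested miRNAs was -0.02, with 271 higher and 287 lower estimates. The differences in miRNA level given below are therefore measured values that did not pass the adjusted threshold in edgeR with all libraries.

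**Figure D1:**
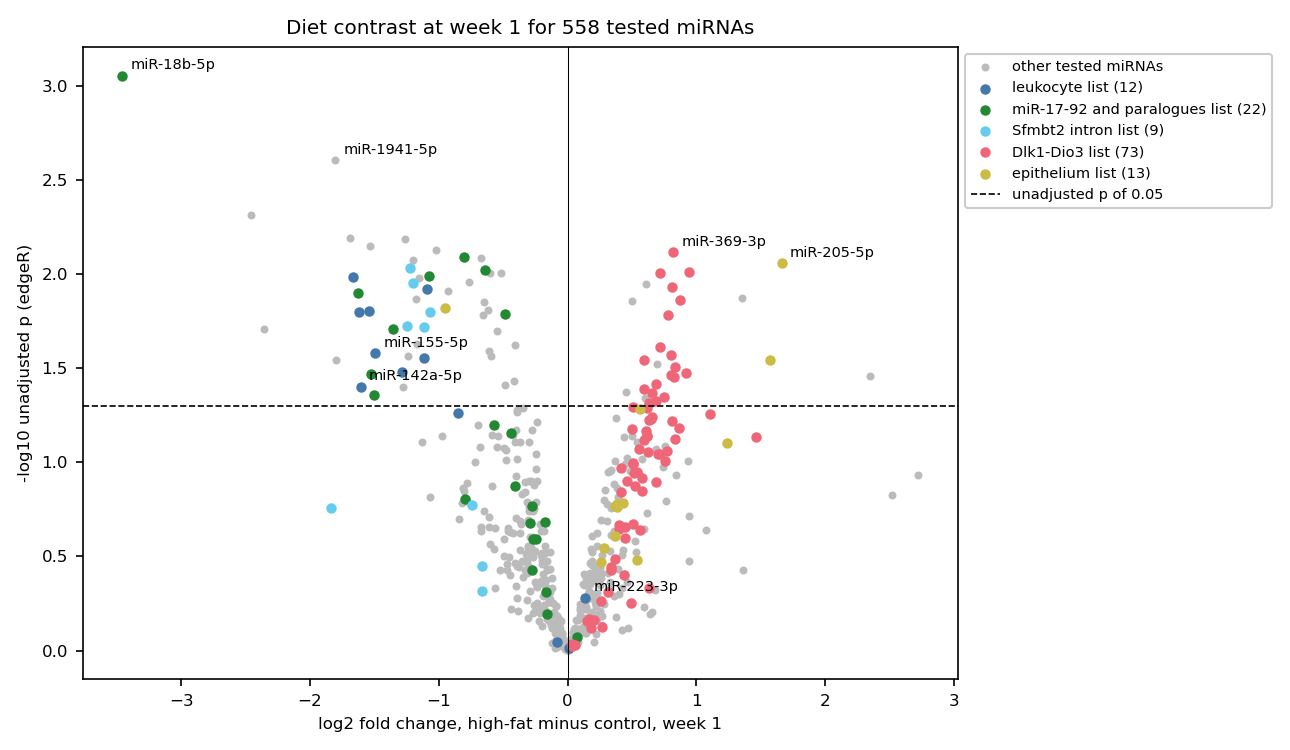
Each point is 1 of the 558 tested miRNAs, placed by its week 1 log2 fold change (high-fat minus control, horizontal axis) and the -log10 of its unadjusted edgeR p (vertical axis); colours mark 5 lists and the dashed line an unadjusted p of 0.05. All 73 Dlk1-Dio3 miRNAs lie to the right of 0, all 9 Sfmbt2 intron miRNAs to the left, and miR-18b-5p is the lowest in fold change.

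Of the 51 miRNAs lower at an unadjusted p under 0.05, the leukocyte list held 8, the miR-17-92 list 9 and the Sfmbt2 intron list 5. Others with small p, such as miR-1941-5p and miR-7a-5p, lay outside these 3 lists. Of the 28 higher ones, 19 came from the Dlk1-Dio3 imprinted region and 2 from the epithelial list. Among all 558 tested miRNAs, the leukocyte list held 12, the miR-17-92 list 22 and the Sfmbt2 intron list 9. The Dlk1-Dio3 list held 73 and the epithelial list 13. The mature sequences that the account turns on are printed here from RefSeq (table for GRCm38.p6), 5′ to 3′, with the seed in capitals. The first set shows the leukocyte miRNAs, which share no seed among themselves.
miR-142a-5p: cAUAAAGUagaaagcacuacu
miR-142a-3p: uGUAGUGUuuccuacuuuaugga
miR-155-5p: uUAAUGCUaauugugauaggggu
miR-342-3p: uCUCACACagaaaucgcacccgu
miR-223-3p: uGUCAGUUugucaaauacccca

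The second set shows miRNAs of the miR-17-92 cluster and its paralogues, which share seeds across chromosomes and in part differ by 1 or 2 bases in all.
miR-17-5p: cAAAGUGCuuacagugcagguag
miR-20b-5p: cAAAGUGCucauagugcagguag
miR-106a-5p: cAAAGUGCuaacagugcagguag
miR-18a-5p: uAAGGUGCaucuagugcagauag
miR-18b-5p: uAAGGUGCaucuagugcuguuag
miR-92a-3p: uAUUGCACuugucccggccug
miR-25-3p: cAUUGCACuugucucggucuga
miR-363-3p: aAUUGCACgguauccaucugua
miR-19a-3p: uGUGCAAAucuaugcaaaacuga

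Counted from the 5′ end, miR-17-5p and miR-106a-5p differ by U10A, miR-17-5p and miR-20b-5p by U10C and C12U, and miR-18a-5p and miR-18b-5p by A18U and A20U. How the submitters placed reads that match several of them is not given in the sources used here, so counts within such groups are uncertain. The third set shows miRNAs with higher values on high-fat feeding, from the Dlk1-Dio3 region, from epithelium and from the Gabre intron. It also holds miR-203-5p, the opposite arm of miR-203-3p, which had lower values on high-fat feeding.
miR-369-3p: aAUAAUACaugguugaucuuu
miR-485-3p: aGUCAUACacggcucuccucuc
miR-382-5p: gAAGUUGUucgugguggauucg
miR-433-3p: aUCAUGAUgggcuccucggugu
miR-379-5p: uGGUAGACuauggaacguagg
miR-411-5p: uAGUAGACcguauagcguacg
miR-205-5p: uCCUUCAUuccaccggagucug
miR-203-3p: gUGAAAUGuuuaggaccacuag
miR-203-5p: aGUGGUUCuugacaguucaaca
miR-224-5p: uAAGUCACuagugguuccguu

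The leukocyte list had lower values on high-fat feeding for most of its members. Of 12 tested members, 10 had lower and 2 higher estimates, and 8 were lower at an unadjusted p under 0.05 against 9.14% of all tested miRNAs, with a median log2 fold change of -1.20 against -0.02 over all tested miRNAs. Those 8 were both arms of miR-142a, miR-150, miR-155 and miR-342, which are known for high levels in lymphocytes and, for miR-142a, across blood cells. Arms of the same hairpin are not independent of each other, and the lists were chosen with earlier results of these data known. The most abundant was miR-142a-5p (hairpin on chromosome 11, 87756864 to 87756927, plus strand, intron of Mir142hg; coordinates are those of GRCm38, or mm10, with GENCODE M21 genes on the same strand). Its control libraries read 12594, 16533, 11077 and 3304 CPM and its high-fat libraries 1023, 6361, 1172 and 5741 CPM. Control replicates 1 to 3 were above all other libraries, control replicate 4 lay within the high-fat range, and high-fat replicates 1 and 3 were lowest. The log2 fold change was -1.61 ± 0.73 (SE; edgeR unadjusted p = 0.0396, adjusted p = 0.313).

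Control replicates 1 to 3 were also highest, and high-fat replicates 1 and 3 lowest, for the other lymphoid miRNAs. For miR-150-5p, which is highest in mature B and T cells, control libraries read 6626, 8410, 6097 and 1957 CPM and high-fat libraries 675, 3419, 694 and 3136 CPM, a log2 fold change of -1.54 ± 0.58 (edgeR adjusted p = 0.225). For miR-155-5p (chromosome 16, 84714140 to 84714204, exon of Mir155hg), which is induced in activated lymphocytes and macrophages, they read 892, 1143, 491 and 196 CPM against 108, 478, 81.1 and 299 CPM, a log2 fold change of -1.49 ± 0.62 (edgeR adjusted p = 0.275). In each of these control replicate 4 fell among the high-fat libraries, so the groups overlapped. For miR-342-3p (chromosome 12, 108658620 to 108658718, intron of Evl) control libraries held 671, 670, 435 and 230 CPM and high-fat libraries 141, 327, 174 and 299 CPM, a log2 fold change of -1.09 ± 0.40 (edgeR adjusted p = 0.225).

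Myeloid miR-223-3p (chromosome X, 96242817 to 96242926, exon of F630028O10Rik), the miRNA most typical of neutrophils and monocytes, did not share this order. It read 267, 250, 207 and 154 CPM in control and 262, 220, 258 and 224 CPM in high-fat libraries. Its log2 fold change was 0.14 ± 0.21, with a 95% interval of -0.30 to 0.57, and the other arm, miR-223-5p, stood at 0.01. The split of the list into lymphoid and myeloid members was made after their values were seen. Values of miR-146a-5p, an inhibitor of inflammatory signalling present in many immune cells, were 9059, 8321, 4699 and 3037 CPM in control and 2967, 4670, 2374 and 3954 CPM in high-fat libraries. That is a log2 fold change of -0.85 ± 0.42 (edgeR unadjusted p = 0.0544).

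Summed over its tested members, the leukocyte list read 41896, 50573, 31955 and 11802 CPM in control and 6431, 21894, 6001 and 17742 CPM in high-fat libraries. In whole tissue, fewer cells of a type and less RNA per cell cannot be told apart. Mouse subcutaneous fat pads can contain lymph nodes, and the labels do not say whether these were removed. The part of such tissue in the result was not tested.

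**Figure D2:**
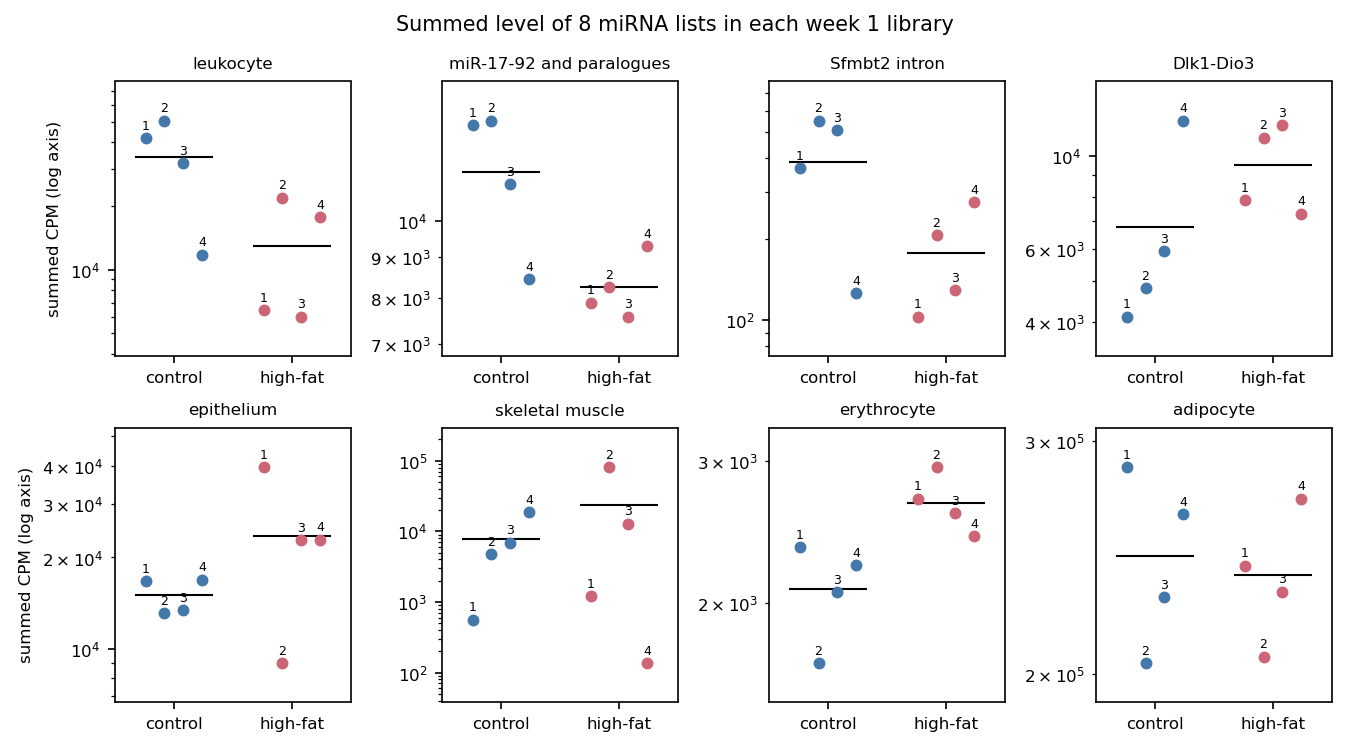
Summed CPM of the tested members of 8 lists (log axis) in each week 1 library; points are libraries numbered by replicate, blue control and red high-fat, and the black line is the group mean. Control replicates 1 to 3 are highest for the leukocyte, miR-17-92 and Sfmbt2 lists, control replicate 4 and high-fat replicate 2 are highest in their diet groups for skeletal muscle, and the adipocyte sums overlap throughout.

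The miR-17-92 list holds growth-promoting miRNAs made from 3 related clusters, which are abundant in dividing and lymphoid cells. Of 22 tested members, 21 had lower and 1 a higher estimate on high-fat feeding, 9 of them lower at an unadjusted p under 0.05 against 9.14% of all tested miRNAs, with a median of -0.46. Of those 9, 5 come from hairpins on chromosome X, at 52741693 to 52742567 on the minus strand and outside annotated host genes: miR-18b-5p, miR-20b-5p, miR-106a-5p and both arms of miR-363. For miR-20b-5p the control libraries read 99.4, 141, 95.9 and 28.4 CPM and the high-fat libraries 11.3, 50.3, 11.7 and 44.9 CPM, in the order seen for the lymphoid miRNAs. Its log2 fold change was -1.63 ± 0.60 (edgeR unadjusted p = 0.0126, adjusted p = 0.225).

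The summed counts of that cluster were 239.6, 309.6, 209.4 and 71.5 CPM in control and 23.6, 121.5, 28.8 and 114.8 CPM in high-fat libraries. Control replicates 1 to 3 were again highest. The log2 fold change of the sum was -1.53 ± 0.60 (edgeR unadjusted p = 0.0184, adjusted p = 0.263). The sum over the original cluster on chromosome 14 (115043671 to 115044506, exon of Mir17hg) was 1898 ± 430 CPM in control and 1501 ± 167 CPM in high-fat libraries (SD, n = 4). That log2 fold change was -0.34 ± 0.20 (edgeR unadjusted p = 0.104), and whether the clusters differed from each other was not tested. Both sums leave out arms made from hairpins in several clusters, among them the more abundant miR-92a-3p, so neither covers its whole cluster.

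The smallest p of the whole contrast belonged to miR-18b-5p (chromosome X, 52742331 to 52742413). It read 4.99, 5.11, 4.27 and 1.61 CPM in control and 0, 0.640, 0 and 0.848 CPM in high-fat libraries, without overlap. The log2 fold change was -3.46 ± 0.90 (edgeR unadjusted p = 0.000884, adjusted p = 0.225). It rested on 126 counts in the control and 5 counts in the high-fat libraries, so the estimate depends on few reads. Its chromosome 14 relative miR-18a-5p, with the same seed, read 32.2, 37.7, 37.3 and 35.2 CPM in control and 24.7, 18.3, 35.9 and 28.8 CPM in high-fat libraries, a log2 fold change of -0.40 ± 0.26.

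The abundant members of the list differed less. For miR-92a-3p, made from hairpins on chromosomes 14 and X, control libraries held 5102, 5280, 4569 and 3110 CPM and high-fat libraries 2397, 3055, 2744 and 3367 CPM, a log2 fold change of -0.64 ± 0.23 (edgeR unadjusted p = 0.00957). For miR-25-3p (chromosome 5, 138165321 to 138165404, exon of Mcm7) they held 3593, 3356, 2536 and 2142 CPM and 2171, 2134, 1801 and 2205 CPM, a log2 fold change of -0.48 ± 0.19. In both, control replicate 4 lay within the high-fat range. For miR-19a-3p (chromosome 14, 115044000 to 115044081), whose seed differs from the other seeds printed above for this list, the change was -0.81 ± 0.28 (edgeR unadjusted p = 0.0081). By contrast miR-17-5p stood at -0.27 ± 0.19 (edgeR unadjusted p = 0.171), or -0.18 without control replicate 2.

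Summing counts over a shared seed gathers miRNAs that could pair to the same targets. The seed sums hold only names matched to a RefSeq mature sequence, which took 80.4% of the counts of all libraries. Of 404 seed sums tested, edgeR called 0, and 56 (13.9%) had an unadjusted p under 0.05. The AUUGCAC seed of miR-92a-3p, miR-25-3p, miR-363-3p and relatives summed to 8482 ± 1800 CPM in control and 5801 ± 591 CPM in high-fat libraries (SD, n = 4). Its log2 fold change was -0.55 ± 0.19 (edgeR unadjusted p = 0.00885, adjusted p = 0.224). The AAGGUGC seed of miR-18a-5p and miR-18b-5p summed to 39.6 ± 3.03 CPM in control and 27.3 ± 7.20 CPM in high-fat libraries, without overlap between the groups, a log2 fold change of -0.54 ± 0.26. The AAAGUGC seed, of which miR-20b-5p and miR-106a-5p are minor contributors, stood at -0.27 ± 0.18. The GAGGUAG seed of the let-7 family, miRNAs that restrain growth and favour differentiation, summed to 106417 ± 6199 and 99977 ± 12724 CPM, a log2 fold change of -0.09 ± 0.11.

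The miR-15 family restrains the cell cycle. In the list of miR-15, miR-16, miR-195 and miR-497, 8 of 11 tested members had lower and 3 higher estimates, with 3 lower at an unadjusted p under 0.05 against 9.14% of all tested miRNAs. For miR-15b-5p (chromosome 3, 69009772 to 69009835, intron of Smc4) control libraries read 460, 547, 465 and 238 CPM and high-fat libraries 157, 252, 175 and 314 CPM, a log2 fold change of -0.93 ± 0.34. From the neighbouring hairpin, miR-16-2-3p read 22.7, 30.9, 20.7 and 13.0 CPM against 11.1, 11.3, 8.71 and 11.9 CPM, without overlap, a log2 fold change of -1.02 ± 0.35 (edgeR unadjusted p = 0.0075, adjusted p = 0.225). From the Dleu2 locus, miR-16-1-3p read 186, 140, 132 and 143 CPM against 85.8, 105, 113 and 126 CPM, also without overlap, a log2 fold change of -0.48 ± 0.22. The first pair, from neighbouring hairpins, is printed since its seeds differ while both were lower.
miR-15b-5p: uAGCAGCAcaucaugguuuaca
miR-16-2-3p: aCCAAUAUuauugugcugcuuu

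The Sfmbt2 intron holds a large rodent-specific cluster of repeated hairpins, of which 9 arms were tested out of 80 names. All 9 had lower estimates, 5 at an unadjusted p under 0.05 against 9.14% of all tested miRNAs, with a median of -1.11. For miR-669c-5p control libraries read 207, 318, 313 and 65.5 CPM and high-fat libraries 62.7, 123, 84.4 and 147 CPM, a log2 fold change of -1.11 ± 0.44. For miR-467e-5p they read 67.6, 105, 85.5 and 28.0 CPM against 19.8, 39.4, 20.7 and 57.2 CPM, a log2 fold change of -1.07 ± 0.41 (edgeR unadjusted p = 0.0159, adjusted p = 0.225). Control replicates 1 to 3 were highest and control replicate 4 lay among the high-fat libraries, as for the lymphoid miRNAs. These arms are near copies of each other, so counts of single names are uncertain.

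**Figure D3:**
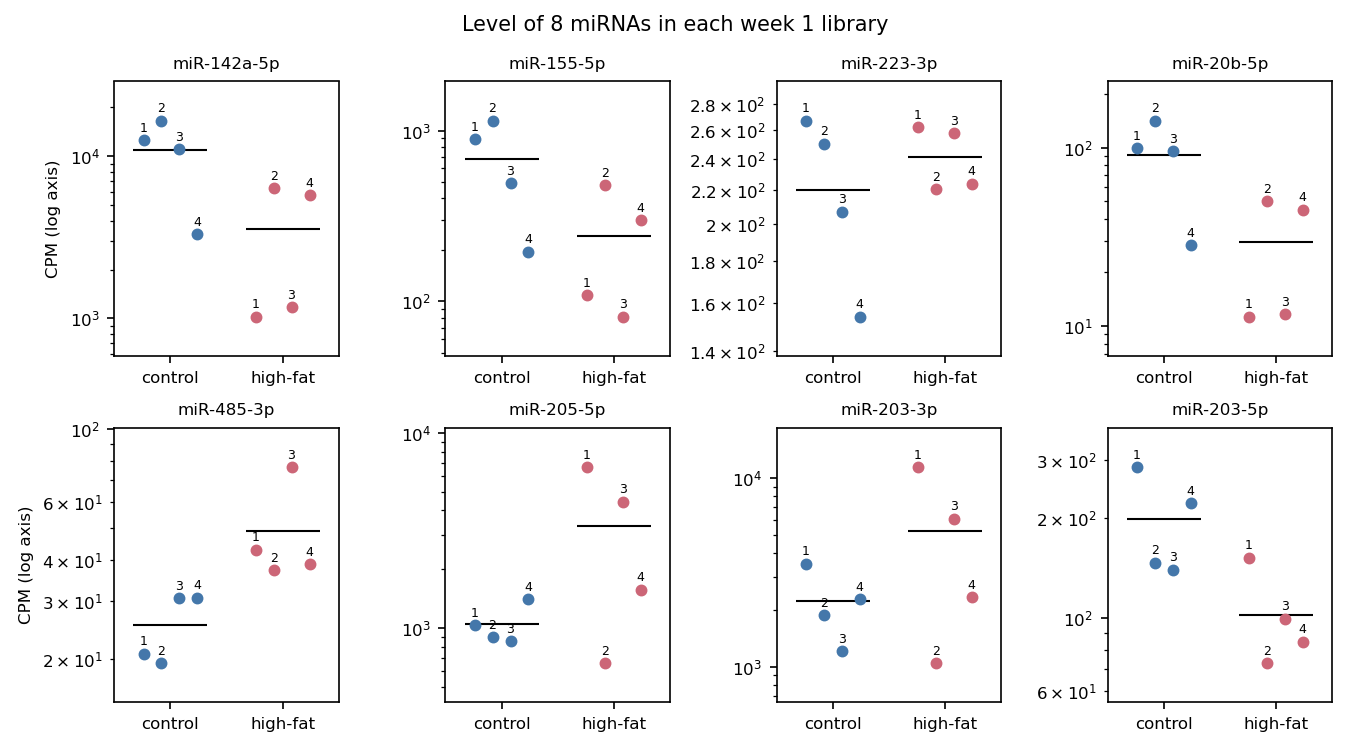
CPM (log axis) of 8 miRNAs in each week 1 library; points are libraries numbered by replicate, blue control and red high-fat, and the black line is the group mean. Control replicate 4 sits within the high-fat values for miR-142a-5p, miR-155-5p and miR-20b-5p, all 4 high-fat values of miR-485-3p lie above the controls, and high-fat replicates 1 and 3 stand highest for miR-205-5p and miR-203-3p.

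The Dlk1-Dio3 region of chromosome 12 is an imprinted domain whose maternal copy makes a long series of miRNAs, known for roles in growth and metabolism. All 73 tested members, of 112 names, had higher estimates on high-fat feeding, and 19 had an unadjusted p under 0.05, against 5.02% of all tested miRNAs in that direction. The members come from a few shared transcripts and are not independent of each other. The median log2 fold change was 0.60, and single estimates ranged from 0.03 to 1.46. Summed, the list read 4113, 4821, 5912 and 12184 CPM in control and 7858, 11084, 11873 and 7278 CPM in high-fat libraries. Control replicate 4 was the highest of all 8, and the other 3 control libraries lay below every high-fat library.

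Within the region, miR-485-3p (chromosome 12, 109734902 to 109734974, exon of Mirg) read 20.8, 19.5, 30.7 and 30.8 CPM in control and 43.1, 37.3, 76.7 and 39.0 CPM in high-fat libraries. The groups did not overlap, and high-fat replicate 3 was far above the others. The log2 fold change was 0.94 ± 0.33 (edgeR unadjusted p = 0.00979, adjusted p = 0.225). The other member without overlap was miR-433-3p (109591715 to 109591838), at 18.1, 14.2, 26.0 and 28.0 CPM in control and 35.1, 33.7, 42.5 and 28.4 CPM in high-fat libraries, a log2 fold change of 0.69 ± 0.33. Control replicate 4 and high-fat replicate 4 differed by only a small margin there.

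The smallest p in the region belonged to miR-369-3p (109743418 to 109743496, exon of Mirg), with 14.1, 19.9, 17.3 and 28.8 CPM in control and 31.6, 56.5, 33.5 and 19.9 CPM in high-fat libraries, a log2 fold change of 0.82 ± 0.28 (edgeR unadjusted p = 0.00764), or 0.50 without high-fat replicate 2. For miR-382-5p (109733771 to 109733846) the values were 55.1, 67.3, 63.8 and 74.6 CPM against 103, 150, 108 and 67.0 CPM, a change of 0.72 ± 0.25. In both, high-fat replicate 4 lay within the control range. Among the abundant members, miR-411-5p (109710175 to 109710256) stood at 0.61 ± 0.30 and miR-379-5p (109709060 to 109709125) at 0.40 ± 0.32, neither at an unadjusted p under 0.05. Without high-fat replicate 3 these were 0.35 and 0.09, and without control replicate 4 they were 0.99 and 0.80. Without control replicates 1 and 2 in turn miR-379-5p stood at 0.24 and 0.22. For miR-136-5p the log2 fold change was 0.92 ± 0.41, or 0.56 without high-fat replicate 2. Since miR-3071 is annotated over it on the other strand and the strand setting of the counting is not given in the sources used here, reads of this pair cannot be told apart.

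The summed epithelial miRNAs were above every control in 3 of the 4 high-fat libraries. Of 13 tested members of the epithelial list, 12 had higher estimates, with 2 higher and 1 lower at an unadjusted p under 0.05, against 5.02% and 9.14% of all tested miRNAs, and a median of 0.38. For miR-205-5p (chromosome 1, 193507463 to 193507530, minus strand, exon of 4631405K08Rik), a miRNA of stratified epithelium such as skin, control libraries read 1039, 900, 858 and 1411 CPM and high-fat libraries 6658, 661, 4433 and 1572 CPM. High-fat replicates 1 and 3 were far above all others and high-fat replicate 2 was the lowest of the 8. The log2 fold change was 1.66 ± 0.57 (edgeR unadjusted p = 0.00878, adjusted p = 0.225), or 1.08 without high-fat replicate 1. Its other arm, miR-205-3p, stood at 1.57 ± 0.67 on 50 counts in control and 63 in high-fat libraries.

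For miR-203-3p (chromosome 12, 112130880 to 112130955, outside annotated host genes), which drives keratinocyte differentiation, control libraries read 3510, 1869, 1203 and 2280 CPM and high-fat libraries 11416, 1042, 6080 and 2342 CPM. The same 2 high-fat libraries were high, and the log2 fold change was 1.24 ± 0.67 (edgeR unadjusted p = 0.0788), or 0.51 without high-fat replicate 1. The opposite arm, miR-203-5p, differed the other way, with 285, 147, 140 and 222 CPM in control and 152, 72.9, 99.3 and 84.8 CPM in high-fat libraries, a log2 fold change of -0.95 ± 0.36 (edgeR unadjusted p = 0.0152). The log2 ratio of the 5p to the 3p arm was -3.62, -3.67, -3.11 and -3.36 in control and -6.23, -3.83, -5.93 and -4.79 in high-fat libraries, without overlap. This change of -1.76 ± 0.57 was the one with the smallest p among 167 arm ratios in limma (unadjusted p = 0.00514, adjusted p = 0.858), of which 5 (2.99%) had an unadjusted p under 0.05 and 0 an adjusted one.

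The sum of the epithelial list was 16705, 13099, 13430 and 16908 CPM in control and 39617, 8979, 22826 and 22893 CPM in high-fat libraries. Of the miR-200 family, which keeps cells epithelial, miR-200a-3p was the most abundant, with a log2 fold change of 0.38 ± 0.27. This was 0.19 and 0.21 without high-fat replicates 1 and 4 in turn and 0.63 without high-fat replicate 2. The high-fat libraries high in miR-205-5p and miR-203-3p were those lowest in the lymphoid miRNAs. Their part in the other results was not tested.

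Skeletal muscle miRNAs varied widely within each diet. The muscle list summed to 560, 4798, 6905 and 18794 CPM in control and 1202, 81017, 12801 and 136 CPM in high-fat libraries. Of its 8 tested members 7 had higher estimates, with 0 at an unadjusted p under 0.05, against 14.2% of all tested miRNAs. For miR-1a-3p, the most abundant muscle miRNA, the log2 fold change was 2.52 ± 1.67, with a 95% interval of -0.99 to 6.03. Without high-fat replicate 2 it was -0.44. Erythrocyte members, 6 of 6, also had higher estimates without any at an unadjusted p under 0.05, led by miR-451a at 1504 ± 290 CPM in control and 1934 ± 359 CPM in high-fat libraries (SD, n = 4).

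The other lists followed roles in fat tissue. The miR-29 family, which represses collagens, had 6 of 7 lower estimates and the let-7 list 11 of 22. Both had 0 at an unadjusted p under 0.05, against 14.2% of all tested miRNAs. In the list of miRNAs that inhibit fat cell formation, 2 of 14 were lower at that threshold, near the 9.14% of all tested miRNAs. They were the arms of miR-130b, which represses Pparg. For miR-130b-5p the values were 37.2, 39.4, 26.0 and 9.49 CPM in control and 8.72, 14.3, 10.3 and 17.0 CPM in high-fat libraries, a log2 fold change of -1.16 ± 0.42, with control replicate 4 again among the high-fat values. The stromal list had 6 of 6 higher estimates, led by miR-199a-3p at 12449 ± 3455 CPM in control and 17074 ± 4917 CPM in high-fat libraries, a log2 fold change of 0.46 ± 0.21 (edgeR unadjusted p = 0.0423, adjusted p = 0.322). Its mature sequence is that of miR-199b-3p, so the division of reads between these names is uncertain.

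Several miRNAs outside the lists described above had groups that did not overlap. For miR-224-5p (chromosome X, 72261031 to 72261112, minus strand, intron of Gabre) control libraries read 155, 157, 133 and 109 CPM and high-fat libraries 238, 207, 197 and 205 CPM. The log2 fold change was 0.61 ± 0.22 (edgeR unadjusted p = 0.0113, adjusted p = 0.225). For miR-425-3p the values were 68.2, 63.0, 55.9 and 41.7 CPM against 38.4, 38.0, 39.2 and 34.7 CPM, a change of -0.60 ± 0.21. For miR-196a-5p, a Hox cluster miRNA, they were 602, 623, 624 and 558 CPM against 764, 737, 788 and 661 CPM, a change of 0.29 ± 0.19. In the Hox cluster list, 3 of 9 tested members had higher and 6 lower estimates.

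Both arms of miR-1941 (chromosome 15, 101369352 to 101369434, intron of Gm35853) were lower. For miR-1941-5p the values were 3.74, 2.90, 4.60 and 6.02 CPM in control and 0.943, 1.71, 1.63 and 0.424 CPM in high-fat libraries, without overlap. Its log2 fold change of -1.80 ± 0.53 (edgeR unadjusted p = 0.00248, adjusted p = 0.225) rested on 178 and 19 counts. For miR-488-3p (chromosome 1, 158505625 to 158505733, intron of Astn1), a neuronal miRNA, the values were 7.49, 8.29, 2.63 and 2.17 CPM against 1.89, 1.49, 1.09 and 1.70 CPM, on 155 and 23 counts.
miR-1941-5p: aGGGAGAUgcugguacagaggcuu
miR-488-3p: uUGAAAGGcuguuucuugguc
miR-7a-5p: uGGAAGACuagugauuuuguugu

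The last of these, miR-7a-5p, made by neuroendocrine and other cells, had 468, 338, 156 and 113 CPM in control and 95.9, 158, 65.9 and 128 CPM in high-fat libraries, a log2 fold change of -1.26 ± 0.42 (edgeR unadjusted p = 0.00654). Control replicates 1 and 2 carried most of that difference. The neural and endocrine list was mixed, with 6 lower and 3 higher estimates among 9 tested members and a median of -0.12. Single estimates ranged from -1.69 to 2.72, and 2 were lower at an unadjusted p under 0.05 in edgeR, against 9.14% of all tested miRNAs. The remaining names below all controls were miR-3076-5p, miR-219c-3p, miR-20a-3p, miR-5104 and miR-1934-5p, each at a mean under 4 CPM in control libraries, and miR-6956-3p was the remaining name above them. The liver miRNA miR-122-5p read 279, 128, 365 and 186 CPM in control and 345, 749, 606 and 759 CPM in high-fat libraries, a log2 fold change of 1.36 ± 0.50 (edgeR unadjusted p = 0.0133, adjusted p = 0.225). High-fat replicate 1 overlapped the controls and the other 3 lay above them.

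Summing over hairpins that lie within 10 kb of each other gave 219 sums, of which edgeR called 0 and 29 (13.2%) had an unadjusted p under 0.05. On the higher side the smallest p belonged to the sums of miR-205 and of miR-224 with miR-452. The sum of miR-182, miR-183 and miR-96, a cluster of sensory and epithelial cells, was 1917 ± 375 CPM in control and 2897 ± 1237 CPM in high-fat libraries (SD, n = 4), a log2 fold change of 0.60 ± 0.27. On the lower side the smallest p belonged to the miR-1941 sum, at -1.65 ± 0.48, and the miR-142 sum, ranked 16 by p, stood at -1.61 ± 0.65.

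The diet effect of week 1 was set against that of the other times in the same model. Of 558 miRNAs, edgeR called 0 for a difference between week 1 and day 1 and 0 for one between week 1 and week 3. At an unadjusted p under 0.05 there were 83 (14.9%) and 33 (5.91%). Each difference shares the week 1 libraries, so these counts repeat part of the week 1 contrast. The week 1 value of miR-142a-5p, -1.61 ± 0.73 on the log2 scale, stood beside 0.76 ± 0.71 at day 1 and 0.10 ± 0.71 at week 3, and minus that of day 1 it was -2.36 (edgeR unadjusted p = 0.031). For miR-205-5p the 3 values were 0.07 ± 0.56, 1.66 ± 0.57 and -0.53 ± 0.56, with a week 1 minus week 3 difference of 2.19 (unadjusted p = 0.013 in edgeR).

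Median log2 fold changes of the lists at day 1, week 1 and week 3 were 0.31, -1.20 and 0.03 for leukocytes and 0.54, -1.11 and -0.13 for the Sfmbt2 intron. They were -0.15, 0.60 and -0.11 for Dlk1-Dio3 and 0.13, -0.46 and -0.14 for the miR-17-92 list. The signs at week 1 were opposite to those at day 1 in these 4 lists. For miR-136-5p the difference between week 1 and day 1 was 1.97 (edgeR unadjusted p = 0.0024), from 0.92 ± 0.41 at week 1 and -1.05 ± 0.41 at day 1. For miR-224-5p it was 1.01 (edgeR unadjusted p = 0.0039).

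**Figure D4:**
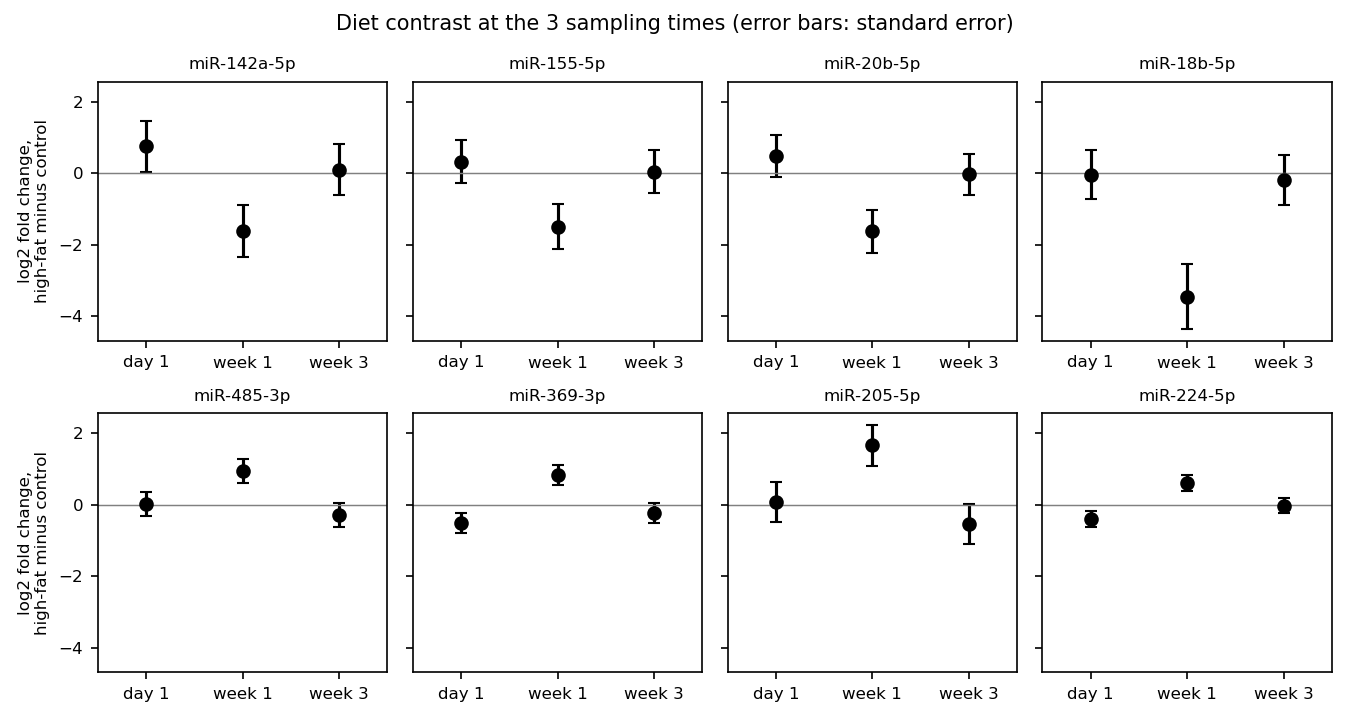
Log2 fold change of high-fat against control feeding (vertical axis; error bars are the SE of the edgeR model) at day 1, week 1 and week 3 for 8 miRNAs. The week 1 estimates lie below 0 for miR-142a-5p, miR-155-5p, miR-20b-5p and miR-18b-5p and above 0 for the other 4, and the day 1 and week 3 estimates are closer to 0.

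The week 1 counts depended on single libraries. Without control replicate 4, the deepest library and the one with the lymphoid, miR-17-92 and Sfmbt2 miRNAs at high-fat levels, the unadjusted counts were 75 higher and 70 lower and 39 seed sums passed an adjusted p under 0.05 in edgeR, while 0 single miRNAs did. Leaving out that library together with high-fat replicate 2, a choice made after their muscle miRNA levels were seen, gave 51 miRNAs past the adjusted threshold. In the leukocyte sum control replicate 4 was the lowest control, at 11802 CPM. High-fat replicate 2 was the highest high-fat library there, at 21894 CPM. Leaving both out therefore widens the leukocyte difference by construction.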

How the data were processed

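Total RNA was made into small RNA libraries with a NEBNext kit, per the labels' protocols. The deposited table holds raw read counts for 1907 mature miRNA names, which the authors made with FastQC, Trim Galore, Bowtie2 and featureCounts on mm10, per the submitters' processing notes; the sources used here give no versions, settings, strand or treatment of multi-mapping reads.

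Groups came from the sample titles. All 24 libraries were fitted in 1 edgeR 4.0.16 quasi-likelihood model of the 6 groups (R 4.3.3, TMM scaling, robust dispersion), and p-values were adjusted by Benjamini-Hochberg over the 558 miRNAs kept by filterByExpr (minimum count 10, minimum total 15). Names removed by it, 1349, took 0.0179% of counts. Arm ratios used log2 with a pseudocount of 0.5 in limma 3.58.1, and totals an exact permutation test. Libraries of a group were compared by chi-square, at 205 or more per degree of freedom, and none was merged. Intervals cover 95%, and floors counting error only. The fit was tested on simulated data.

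Of the names, 1623 matched 1 RefSeq mature sequence and 1528 a hairpin position; genes are GENCODE M21. Host genes were sought on the hairpin's strand. Named miRNAs were, by p, the first 12 higher and first 12 lower, the 10 most abundant, up to 4 abundant members of each list and every member with an unadjusted p under 0.05, members of the 5 leading seed and hairpin sums in each direction, and opposite arms; miRNAs without overlap between groups and the members set beside these for comparison were added after their values were seen. Members and lists were chosen with earlier results of these data known.

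Alternatives were RLE factors, library totals alone, DESeq2 1.42.0, factors computed without the top 5 miRNAs, no filter, mean CPM of 10 or more, limma-voom with quality weights, the 8 libraries alone, a replicate block, each library left out, and, added after the data were seen, 2 muscle-related settings.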

Additional observations from a re-analysis of the deposited data

Results flagged for a closer look

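Among 132 sets of 4 values tested for a single distant library, 4 had a gap above Dixon's 95% critical value, where chance alone gives about 5% of sets. In control replicate 4 miR-206-3p, a skeletal muscle miRNA, stood at 10835 CPM, against 155 to 1837 CPM in the other controls. In high-fat replicate 2 miR-1a-3p, also of muscle, stood at 65012 CPM, against 56.8 to 6591 CPM in the other high-fat libraries. The summed muscle list of that library was 81017 CPM, against 136 to 12801 CPM. In high-fat replicate 3 miR-485-3p of the Dlk1-Dio3 region stood at 76.7 CPM, against 37.3 to 43.1 CPM. The diet effect did not differ between times for any miRNA at an adjusted p under 0.05 in edgeR (0 calls against day 1 and 0 against week 3; 83 and 33 at an unadjusted p under 0.05).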

How the results depend on the processing

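Under edgeR 0 miRNAs passed the adjusted threshold in the planned settings, and 0 in DESeq2. Limma-voom with quality weights gave 17, of which 16 were lower, and leaving out control replicate 4 with high-fat replicate 2, the pair highest in muscle miRNAs and chosen after the data were seen, gave 51; the cause was not tested. The unadjusted count of higher miRNAs, 28, was 49 with no filter, 68 in limma-voom, 15 on the 8 libraries alone and 84 without the muscle-high pair; that of lower ones, 51, was 33 at a mean CPM of at least 10. Arm ratios at an unadjusted p under 0.05 numbered 10 with a pseudocount of 5. The leukocyte median was -2.03 without the muscle-high pair, which held the lowest control and the highest high-fat leukocyte sum. The skeletal muscle median was -1.01 in limma-voom. The medians of the leukocyte, miR-17-92, Sfmbt2, Dlk1-Dio3 and epithelial lists kept their sign in every setting run.

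With 1 library left out at a time, the higher count was 13 to 75 and the lower 29 to 70. Control replicates 1, 2 and 4 and high-fat replicates 3 and 4 gave 15, 13, 75, 14 and 45 higher, and control replicate 2 and high-fat replicate 3 gave 31 and 29 lower. Seed sums at an adjusted p under 0.05 numbered 0 to 39 (39 without control replicate 4) and at an unadjusted one 33 to 107; hairpin sums 16 to 42; differences from day 1 47 to 141, from week 3 22 to 93; arm ratios 2 to 7. The skeletal muscle median was -0.56 to 1.46, below 0 without high-fat replicate 2. The Dlk1-Dio3 median was 0.44 to 0.97 (0.97 without control replicate 4), the epithelial one 0.13 to 0.63 (0.13 without high-fat replicate 1, 0.63 without high-fat replicate 2) and the leukocyte one -1.72 to -0.99. The difference in log10 total was -0.447 to -0.285, with an exact permutation p of 0.0571 without any 1 high-fat library.

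Of 1079 values of 57 named miRNAs under other settings, 30 changed sign, all of miRNAs whose 95% interval spans 0. In the order RLE, totals, no top 5, mean CPM of at least 10, DESeq2, limma-voom and without the muscle-high pair, miR-148a-3p stood at 0.027, 0.032, 0.023, 0.023, 0.027, 0.11 and 0.16 and miR-30a-5p at 0.027, 0.023, 0.028, 0.028, 0.027, 0.049 and 0.055. In limma-voom miR-1a-3p was -1.10 and miR-206-3p -0.38. With 1 library left out, miR-148a-3p ranged from -0.14 to 0.11, miR-30a-5p from -0.078 to 0.052, miR-10b-5p from -0.23 to 0.10, miR-126a-3p from -0.024 to 0.11, miR-223-3p from -0.0021 to 0.24, miR-1a-3p from -0.44 (without high-fat replicate 2) to 3.01 and miR-206-3p from -1.19 (without high-fat replicate 2) to 1.80.

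Whether the replicate numbers pair the libraries was not tested. Deviations of same-numbered libraries correlated at 0.44, 0.28, 0.27 and -0.51, and 2 of 4 numbers correlated best with themselves, which does not decide it. With the replicate block 0 miRNAs passed the adjusted threshold, with 33 higher and 48 lower at an unadjusted p under 0.05, 62 seed and 31 hairpin sums, and 78 and 41 differences from day 1 and week 3. The high-fat libraries held 2.54 to 4.15 M counts, and the part of this depth in the values of low-level miRNAs was not tested.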
